A study of Homo sapiens with 4 samples.

Results

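Peaks of H3K4bhb that lay close to a peak of the other treatment were taken from both deposited peak lists on chromosomes 1 to 22. A peak was a member when its summit, its highest point, lay within 5 kb of a summit in the other list. In the H2O2 list 335 of 5879 peaks met this rule, and in the H2O2 + BHBNa list 344 of 10760 did. These 679 peaks formed 357 pairs at 326 loci. In 69 pairs the peaks overlapped by at least 1 bp, and the 288 others, called near-only pairs, lay beside each other without touching. Members were chosen by summit position in these lists, so the counts and values that follow are descriptions and carry no test.

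The cells were HK-2, an established line of human renal tubular epithelium, cultured in MEM with 10% fetal bovine serum and fixed with formaldehyde. All groups received hydrogen peroxide (H2O2), an oxidant. The treatments were H2O2 alone and H2O2 after pretreatment with sodium beta-hydroxybutyrate (BHBNa). Each treatment had 1 library immunoprecipitated (IP) with an antibody to H3K4bhb and 1 control library, which the titles call IgG and the library names call input. No untreated group was analysed here, and the sources used here give no doses or times. With 1 IP library a treatment no difference has a replicate check, and comparisons describe these libraries.

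Beta-hydroxybutyrate is a ketone body that the liver releases during fasting and that other tissues, the kidney among them, burn in mitochondria. It can also be joined to lysines of histones, where it neutralises their charge. H3K4bhb carries it on lysine 4 of histone H3, the residue whose methylation marks promoters and enhancers of active genes. The neighbouring pairs describe how often peaks of the 2 IP libraries fell at or beside the same place.

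Depth differed between the lists. The lowest control background recovered from the peak values, which scales with IP depth, was 0.274 fragments for H2O2 and 0.102 for H2O2 + BHBNa, a ratio of 2.68. The median peak rested on 4 IP fragments in the former and on 2 in the latter. The fold printed for each peak is the authors' deposited enrichment over control within its own list, so the folds of a pair stand side by side and their difference is no change in the mark.

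Overlapping pairs were 4.23 times as many as shifted positions gave. For this comparison every H2O2 peak was moved by 50 to 500 kb to either side in steps of 50 kb, and pairs were counted again for each of the 20 shifts. Shifted positions gave a mean of 16.3 overlapping pairs (range 9 to 25), against 69 as deposited. The share of H2O2 peaks that overlapped was 1.17% as deposited and 0.277% over the shifts. For H2O2 + BHBNa peaks the shares were 0.632% and 0.151%. Most peaks of each list therefore had no counterpart at the same place in the other.

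Near-only pairs exceeded the shifted positions by much less. There were 288, where shifts gave a mean of 247 (range 215 to 277), a ratio of 1.16. With both kinds of pair together, 5.7% of H2O2 peaks had a neighbour within 5 kb, against 4.37% over the shifts. In the H2O2 + BHBNa list the shares were 3.2% and 2.41%. Neighbours within 5 kb were thus only somewhat more common than at shifted positions.

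**Figure D1:**
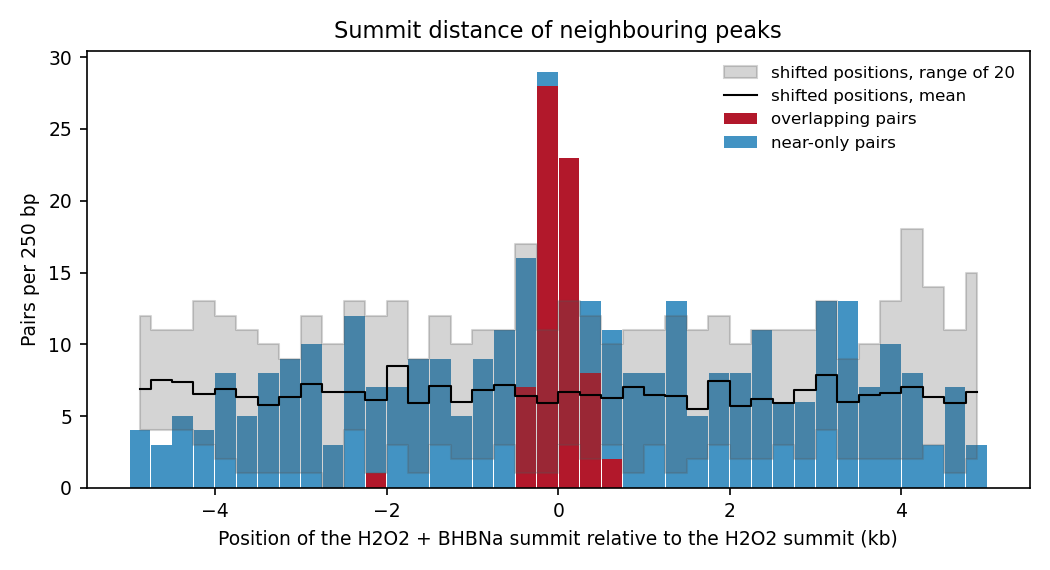
Pairs per 250 bp (vertical axis) by the position of the H2O2 + BHBNa summit relative to the H2O2 summit in kb (horizontal axis), with overlapping pairs in red, near-only pairs in blue, and the mean (line) and range (grey) of all pairs over 20 shifts. Overlapping pairs form a narrow column at the centre, while near-only pairs lie mostly within the grey range.

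Summits of overlapping pairs had a median distance of 126 bp (interquartile range 59 to 253). They lay within 100 bp of each other in 27 of 69 pairs, or 39.1%. Of shifted overlapping pairs 32.8% did, a similar share. The closest summits were 2 bp apart, in a pair on chromosome 4. Summits were over 500 bp apart in 3 overlapping pairs. With at least 50% of both peaks required to overlap, 39 pairs were left and shifts gave 7.3.

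The excess of near-only pairs was uneven over distance. Up to 500 bp there were 15, where shifts gave a mean of 9.7 (range 4 to 16). Between 500 and 3500 bp there were 206 near-only pairs, where shifts gave a mean of 157 (range 134 to 178). Between 3500 and 5000 bp there were 67, where shifts gave 80.5 (66 to 96). Beyond the limit, at 5 to 10 kb, there were 282, where shifts gave 260 (213 to 287). These ranges were set after the distances were seen, and within the 500 to 3500 bp range the counts varied, with 43 pairs at 3000 to 3500 bp (shifted mean 26) and 25 at 2500 to 3000 bp (shifted mean 26.5). The H2O2 + BHBNa summit had the higher coordinate in 151 of the 288 near-only pairs, so neither side was favoured.

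At the limit itself, the widest-spaced member pairs were a pair in TIAM2, a Rac activator, with summits 4971 bp apart and folds of 3.29 (H2O2) and 4.27 (H2O2 + BHBNa), and an intergenic pair on chromosome 4, 4929 bp apart, with folds of 3.68 and 2.55. Just outside it lay an intergenic pair on chromosome 12, 5017 bp apart, with folds of 3.06 and 2.61. The other was in the overlapping genes COL10A1 and NT5DC1, 5037 bp apart, with folds of 2.95 and 3.56. Values on both sides of the limit were alike in size.

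Overlapping peaks were stronger than other peaks of their lists. In the H2O2 list 19 of 69 overlapping peaks had a q, the false discovery rate given by the peak caller, of 0.05 or less. That was 27.5% (95% Wilson interval 18.4 to 39.0), where 7.08% of all its peaks on these chromosomes did. In the H2O2 + BHBNa list 32 of 68 did, or 47.1% (35.7 to 58.8), where 15.1% of all peaks did. Near-only peaks stood at 5.64% (3.45 to 9.09) with H2O2 and 13.4% (9.88 to 17.9) with H2O2 + BHBNa, near those shares of all peaks. Intervals cover counting error only.

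Overlapping peaks also had the higher median fold and width. The median fold of overlapping peaks was 3.65 with H2O2 and 3.58 with H2O2 + BHBNa. Over all peaks it was 3.51 and 2.72, and for near-only peaks 3.52 and 2.98. Median widths of overlapping peaks were 372 and 390 bp, against 294.5 and 339 bp for near-only peaks and 297 and 324 bp for all peaks, and the part of width in the overlaps was not tested. Of overlapping H2O2 + BHBNa peaks 17.6% rested on 2 IP fragments, against 51.8% of all peaks of that list.

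In the H2O2 list the class with the most IP fragments had by far the highest share of peaks with a counterpart. Of H2O2 peaks with 3 fragments 0.888% overlapped a peak of the other list, with 4 fragments 0.857%, with 5 fragments 0.995% and with 6 to 9 fragments 1.32%. Of the 79 with 10 or more, 11 did, or 13.9% (7.96 to 23.2). Shifts gave means between 0.268% and 0.506% in these classes. The highest shift gave 0.726%, 0.536%, 0.498%, 0.699% and 2.53% in the same order, below the deposited share in each class. Of the 11, 5 had control background over 10 times the lowest, and without all 16 such peaks of the class 6 of 63 overlapped, or 9.52% (4.44 to 19.3).

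In the H2O2 + BHBNa list the same share was 0.215% at 2 fragments, 0.659% at 3, 0.613% at 4 and 3.56% at 5 to 9. Of the 21 peaks with 10 or more fragments 7 overlapped, or 33.3% (17.2 to 54.6). Of these 7, 4 had control background over 10 times the lowest, and without all 13 such peaks 3 of 8 overlapped. Leaving those peaks out was chosen after the values were seen. At 2 fragments shifts gave 0.135% (range 0.0359 to 0.323), so the faintest peaks, 51.8% of that list, overlapped no more often than the highest shifted set. Near-only shares in the H2O2 list were 4.68% at 3 fragments, 3.18% at 6 to 9 and 2.53% at 10 or more. Shifts gave means of 4.23%, 3.57% and 3.23% in these classes. In the H2O2 + BHBNa list the near-only shares were 2.35% at 2 fragments, 3.68% at 4 and 9.52% at 10 or more (2 of 21 peaks, 2.65 to 28.9). The shifted means were 2.13%, 2.46% and 0.238%. Both of those 2 peaks lay at the same locus on chromosome 17, with control background at 25.7 and 18.4 times the lowest.

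**Figure D2:**
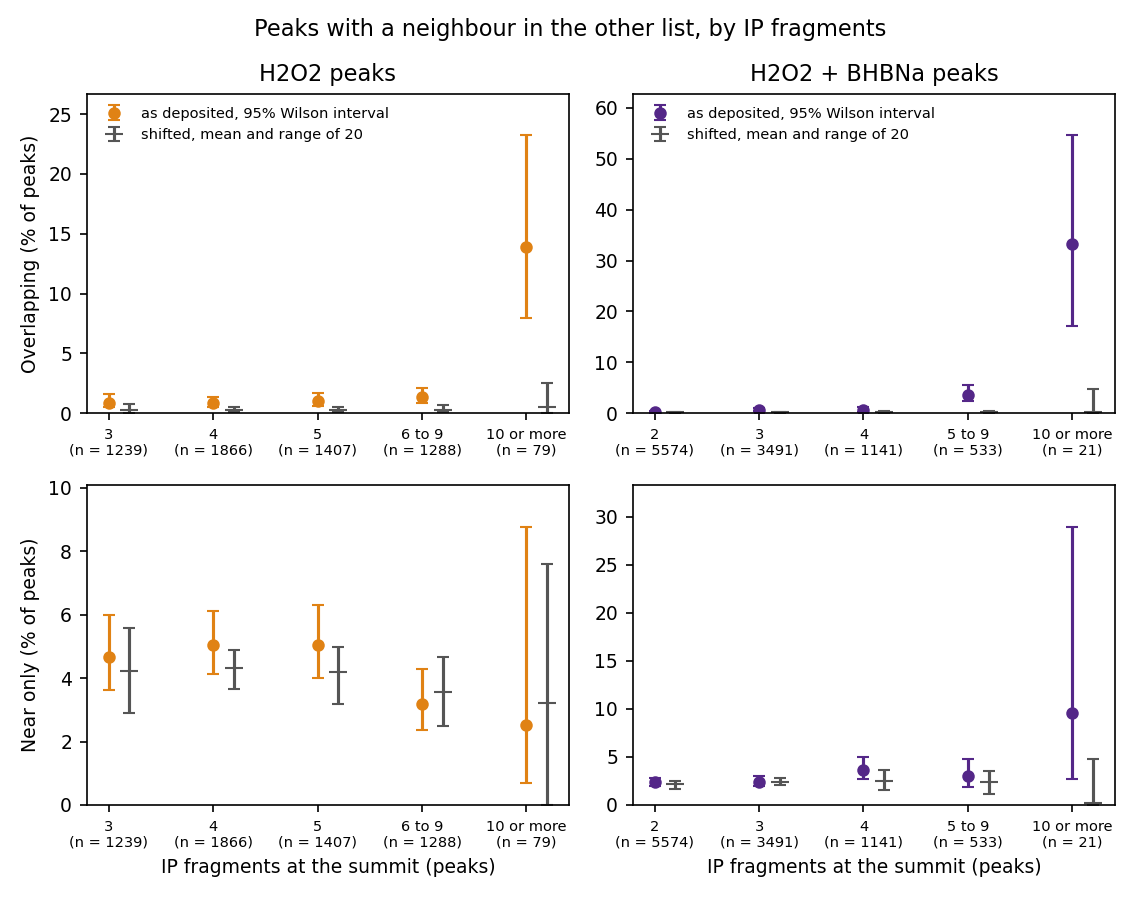
Share of peaks (%) that overlapped (top) or lay near only (bottom) a peak of the other list, by IP fragments at the summit, for H2O2 (left) and H2O2 + BHBNa (right); points are deposited peaks with 95% Wilson intervals, grey marks the mean and range of 20 shifts, and the vertical scales differ between panels. The class of 10 or more fragments stands apart for overlap, at 13.9% and 33.3%.

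Both peaks reached a q of 0.05 in 15 overlapping pairs, 21.7% of them (13.6 to 32.8). In 4 the H2O2 peak alone reached it, in 18 the H2O2 + BHBNa peak alone, and in 32 neither did. Among near-only pairs both reached it in 12, or 4.17% (2.4 to 7.14), and neither in 233. Control background was over 3 times the lowest in both lists at 9 of the 15 overlapping and 3 of the 12 near-only pairs. Over all pairs it was so at 18 of 69 overlapping and 17 of 288 near-only pairs. Loci of 3 or more pairs held 4 of the 15 and 7 of the 12. When the lists were first limited to peaks with a q of 0.05 or less, shifts gave means of 0.2 overlapping and 2.65 near-only pairs. The folds of overlapping pairs rose together across loci, with Spearman's rho of 0.40 over 69 pairs, while over 288 near-only pairs rho was 0.05. The pairs share libraries and local background, so these coefficients are descriptions.

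**Figure D3:**
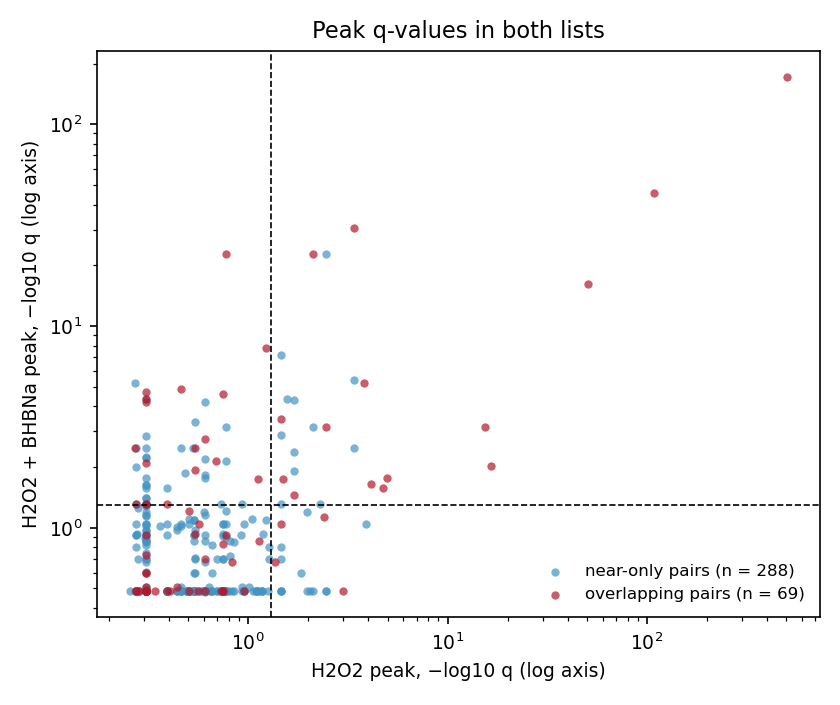
The −log10 q of the H2O2 peak (horizontal) against that of the H2O2 + BHBNa peak (vertical), both on log axes, for 69 overlapping (red) and 288 near-only (blue) pairs; dashed lines mark a q of 0.05. The upper right field holds 15 overlapping and 12 near-only pairs, and the 3 points farthest to the right are overlapping pairs on chromosome 4.

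The 3 overlapping pairs with the highest −log10 q lay outside protein-coding genes, all on chromosome 4. The highest was on chromosome 4, where an H2O2 peak from 49709089 to 49711946 met an H2O2 + BHBNa peak from 49709092 to 49711916. Its folds were 9.22 and 9.69 and its IP fragments 879 and 294. The control background there was 345 and 288 times the lowest of each list. The pair on chromosome 4 at 51107152 to 51107564 (H2O2) had folds of 9.04 and 9.74, with control background at 73.8 and 67.6 times. Another pair on that chromosome, at 166580050 to 166580632 and 153 kb from SPOCK3, had folds of 7.20 and 5.98 and background at 51.0 and 62.2 times. In these 3 pairs the control reads were high in both treatments.

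Some other leading overlaps had far less control signal. On chromosome 12 the H2O2 peak at 33995883 to 33996235 had a fold of 11.9 and 15 IP fragments, and its H2O2 + BHBNa counterpart a fold of 5.22 and 5 fragments. Control background there was 1.25 and 1.46 times the lowest. On chromosome 1 a peak at 143254058 to 143254526 had a fold of 5.74 in the H2O2 list, and its counterpart, with summits 42 bp apart, had 18.5 from 23 fragments, the highest fold of either list on these chromosomes. Background was 3.97 and 2.92 times the lowest.

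Chromosome 3 held the opposite case, at 93470394 to 93470781 (H2O2). Its peaks had 110 and 33 IP fragments, but control background at 135 and 124 times the lowest, and folds of only 2.92 and 2.49. At that pair, unlike the chromosome 4 pairs, a high fragment count went with a low fold.

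Inside genes, 3 overlapping pairs reached a q of 0.05 in both treatments. SLC13A3 encodes a sodium-coupled dicarboxylate transporter of the proximal tubule, the segment HK-2 cells come from. Its peaks, on chromosome 20 at 46655982 to 46656642 (H2O2) and 46656093 to 46656579 (H2O2 + BHBNa), had summits 124 bp apart. Folds were 5.22 and 7.01, from 15 and 9 fragments. Control background was 7.53 and 4.17 times the lowest, above that of most peaks in each list, and its part in the pair was not tested.

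CNTNAP2, a neurexin-family adhesion gene of neurons, held a pair on chromosome 7 with summits 61 bp apart at 146711903 and 146711964. Folds were 6.58 and 4.55, from 12 and 5 fragments, with control background at 3.55 and 3.13 times the lowest. The gene is 2304 kb long and held 11 H2O2 and 10 H2O2 + BHBNa peaks, 1 of which in each list took part in an overlap. SKAP1, an adaptor of T cell signalling, held a pair on chromosome 17 with summits 6 bp apart at 48361100 and 48361094. Its folds were 6.86 and 4.19, from 9 and 4 fragments, with control background at 1.67 and 1.90 times the lowest. Of these 3 genes SKAP1 had the lowest control background in both lists.

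The remaining 18 genes with an overlapping pair did not reach that limit in both lists. They are named here after their values were seen, apart from MACROD2, DIP2C, RAB38 and SGCD, which held more than 1 pair. CDYL, a chromodomain protein that acts on crotonyl-CoA and on histone crotonylation, had folds of 3.65 and 3.73 with summits 51 bp apart. RCOR1, the CoREST scaffold of histone deacetylase complexes, had folds of 2.85 and 3.07, from 3 fragments in each list. PHLPP1, a phosphatase of AKT, had folds of 3.38 and 4.08. PLCB4, a phospholipase C, had 4.49 and 3.38.

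EBF2 and ZNF385B encode DNA-binding proteins, TSHR the thyrotropin receptor, MCOLN2 an endolysosomal channel, SH3GLB1 a membrane-curving protein of autophagy and CHN1 a Rac regulator. The others were AGFG1, MS4A14, SCFD2 and TMCC3. Over these 10 genes the H2O2 folds ran from 2.83 in TMCC3 to 3.89 in MS4A14, and the H2O2 + BHBNa folds from 2.58 in SCFD2 to 4.95 in TMCC3. None of the 10 H2O2 peaks had over 6 fragments.

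Near-only pairs that reached a q of 0.05 in both treatments numbered 12, at 8 loci, and 7 of the 12 came from 3 loci that held 3 or more pairs. Just 1 of the 12 lay in a protein-coding gene. BBOX1 encodes the last enzyme of carnitine synthesis, which supplies the carrier of fatty acids into mitochondria and is active in kidney. Its H2O2 peak had a summit at 27088108 on chromosome 11, a fold of 5.35 and 6 fragments. The H2O2 + BHBNa summit lay 3733 bp away at 27091841, with a fold of 3.59 from 3 fragments. The q of that H2O2 + BHBNa peak was 0.0484, just under the limit. Control background was 1.12 times the lowest in both lists. The antisense gene BBOX1-AS1 spans the same place, and the peaks cannot be assigned to either strand.

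The other strong near-only pairs lay outside protein-coding genes. On chromosome 2 summits at 220543425 (H2O2) and 220546581 (H2O2 + BHBNa) had folds of 4.66 and 7.26, 875 kb from EPHA4. On chromosome 3 summits at 197384745 and 197388660 had folds of 4.84 and 6.07, 85.4 kb from DLG1. On chromosome 11 summits at 72199906 and 72201400 had folds of 4.71 and 5.42, 3.58 kb from FOLR1, the folate receptor, and inside the noncoding gene FOLR1-AS1. In these 3 pairs at least 989 bp separated the edges of the peaks. Elsewhere among the 12 such near-only pairs the gap was as small as 683 bp, on chromosome 17.

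Some near-only peaks almost touched. The least gap was 2 bp, between peaks on chromosome 3 with summits at 25955620 and 25955947 and folds of 3.68 and 2.89. The next gaps were 31, 33, 36 and 44 bp, on chromosomes 14, 12, 10 and 3. The 36 bp gap lay in PCDH15, a protocadherin of inner ear hair cells, with folds of 3.02 and 3.32. None of these 5 pairs reached a q of 0.05 in either treatment, and neither did 233 of all 288 near-only pairs. In all, 39 near-only pairs had edges within 500 bp of each other.

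A few loci gathered many pairs. On chromosome 20 a group of 3 H2O2 and 3 H2O2 + BHBNa peaks within 3053 bp formed 9 pairs, 3 of them overlapping. An H2O2 + BHBNa peak there, from 28494720 to 28495934 with a fold of 14.8 and 22 fragments, overlapped H2O2 peaks with folds of 4.13 and 4.99. On chromosome 17 an H2O2 peak at 26884408 to 26884687, with 17 fragments and control background at 14.4 times the lowest, was paired with 4 H2O2 + BHBNa peaks over 4096 bp, 1 of which overlapped it. The chromosome 1 locus described above held 3 pairs. Without the peaks of loci of 3 or more pairs, 64 overlapping and 274 near-only pairs were left, where shifts gave means of 16.3 and 247. The near-only excess over the shifted mean then fell from 40.6 to 26.8 pairs, and 1 of the 20 shifts (highest 277) gave as many or more. Of the 288 near-only pairs, 19 shared a locus with an overlapping pair. Nearness to centromeres is not given here for any pair.

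**Figure D4:**
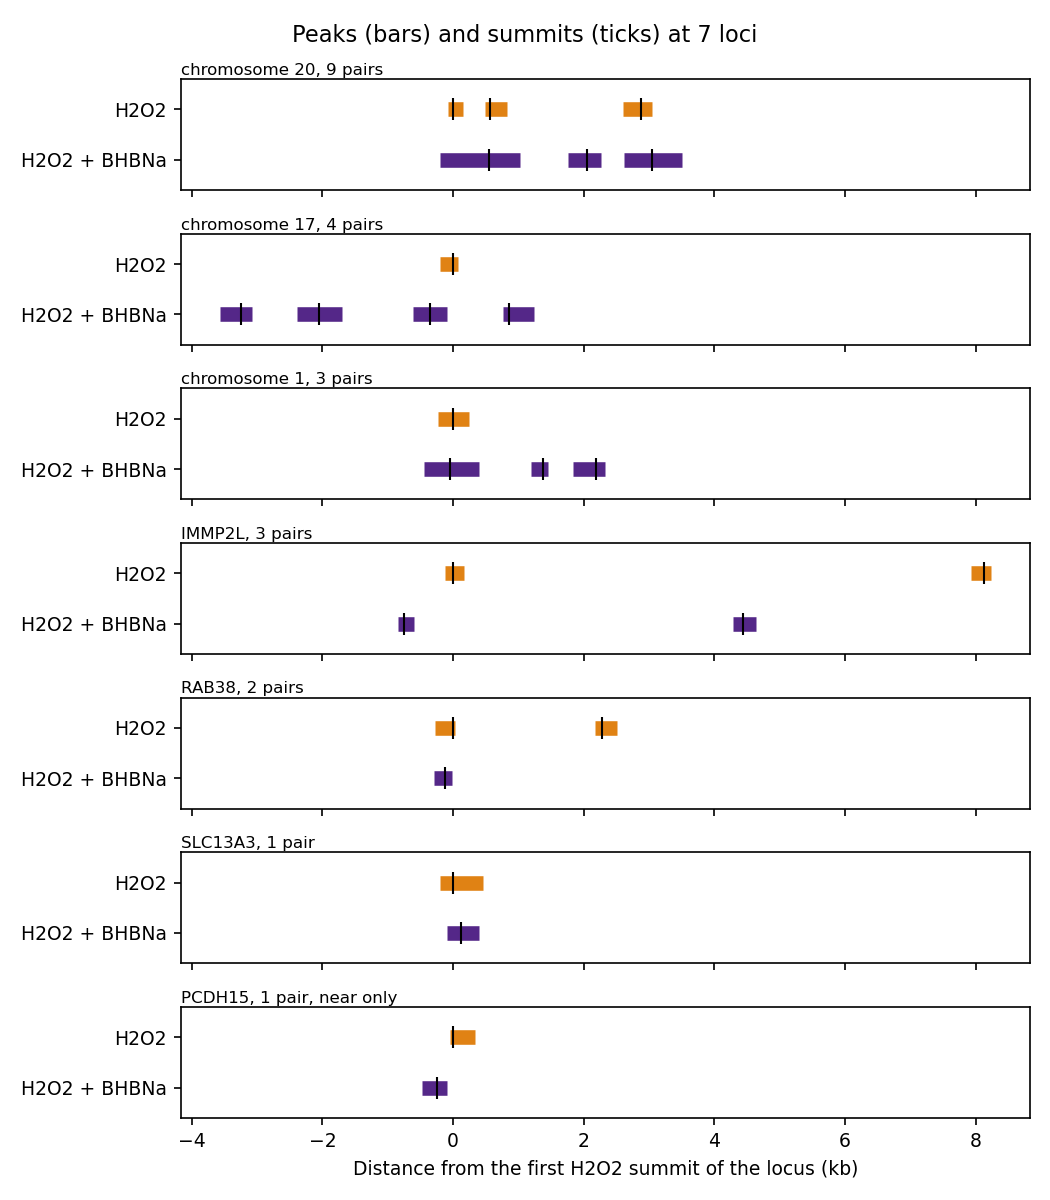
Peaks (bars) and summits (ticks) of the H2O2 (upper row) and H2O2 + BHBNa (lower row) lists at 7 loci, by distance in kb from the first H2O2 summit of the locus. SLC13A3 and the first peaks of RAB38 overlap, the IMMP2L peaks alternate without touching, and the chromosome 20, 17 and 1 loci hold several peaks in a row.

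Besides these loci and one in IMMP2L, 16 loci held 2 pairs and 306 held 1. In all, 10 protein-coding genes held 2 or more pairs. IMMP2L, which encodes a peptidase subunit of the inner mitochondrial membrane, held 3, none overlapping. Its H2O2 summits at 110686593 and 110694724 alternated with H2O2 + BHBNa summits at 110685844 and 110691033. H2O2 folds were 2.87 and 3.55, and H2O2 + BHBNa folds 3.42 and 2.54, from 2 to 5 fragments. The gene is 900 kb long and held 5 peaks in each list.

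MACROD2, an ADP-ribosyl hydrolase, held an overlapping pair with summits 33 bp apart and folds of 3.65 and 4.77, and a second H2O2 + BHBNa peak 932 bp from the H2O2 summit. RAB38, a small GTPase of lysosome-related organelles, had 1 H2O2 + BHBNa peak with a fold of 6.29 that overlapped an H2O2 peak of fold 3.18 and lay 2409 bp from another of 3.70. DIP2C had an overlap with folds of 2.95 and 6.71, and control background at 5.02 and 4.80 times the lowest. In SGCD, delta-sarcoglycan, an overlap with summits 31 bp apart had folds of 3.14 and 3.60.

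The other genes with 2 pairs held near-only pairs alone. They were AUTS2, DMXL2, EBF1, a B cell transcription factor, GLT8D2 and the sialyltransferase gene ST6GALNAC3. Folds in these genes lay between 2.53 (AUTS2) and 4.30 (ST6GALNAC3) for H2O2 + BHBNa, and between 2.81 (AUTS2) and 4.17 (DMXL2) for H2O2. In AUTS2 both H2O2 + BHBNa peaks rested on 2 fragments.

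None of the listed genes of mitochondrial fuel use held a neighbouring pair, and BBOX1, named above, was not among them. Over 5 lists (complex I, the TCA cycle and pyruvate entry, fatty acid oxidation, ketone bodies and monocarboxylate transport, and mitochondrial biogenesis and dynamics), 150 genes lay on these chromosomes. Of them 12 held an H2O2 peak, 24 an H2O2 + BHBNa peak and 6 a peak of each, and 0 of those 6 had summits within 5 kb. In NDUFB5, a complex I subunit gene, the nearest summits were 10.8 kb apart, in ESRRG, a nuclear receptor gene, 11.6 kb, and in NDUFAF2, a complex I assembly factor gene, 18.8 kb. In PPARGC1A, the PGC-1alpha coactivator gene, the distance was 33.9 kb, in the lyase gene HMGCLL1 65.5 kb and in SUCLG2, a succinyl-CoA ligase gene, 152 kb. So few genes held peaks of both lists that no share can be read from them, and of all protein-coding genes 0.591% held a pair.

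Lists of long genes held most of the listed pairs. Of 43 neural adhesion and synapse genes, with a median length of 1158 kb, 37 held an H2O2 peak, 41 an H2O2 + BHBNa peak and 5 a neighbouring pair, CNTNAP2, KCNIP4, OPCML, PCDH15 and TENM3. Of 14 large fragile-site genes 3 held a pair, AUTS2, IMMP2L and MACROD2. In KCNIP4, which encodes a potassium channel partner, summits were 929 bp apart with folds of 3.88 and 3.30. In TENM3, a teneurin gene, the H2O2 peak had a fold of 5.28 and 7 fragments, and the H2O2 + BHBNa peak 1665 bp away had 2.56 from 2. OPCML had folds of 3.76 and 3.24, 3819 bp apart.

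Among 25 proximal tubule genes SLC13A3 alone held a pair. CUBN, LRP2 and SLC4A4, which serve protein uptake and bicarbonate transport there, held peaks of both lists whose nearest summits were 20.0, 34.0 and 65.2 kb apart. Of 40 histone acyl and methyl enzyme genes 5 held peaks of both lists and 0 a neighbouring pair, with KDM1A, a histone demethylase gene, closest at 17.4 kb. Of 56 ribosomal protein genes, a reference list of short genes, 0 held a pair. Peaks do not measure expression, so these lists do not test the identity of the cells.

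Pairs lay in protein-coding genes about as often as shifted pairs, within counting error. Both summits lay in or within 1 kb of the same protein-coding gene in 21 of 69 overlapping pairs, 30.4% (20.8 to 42.1), and in 102 of 288 near-only pairs, 35.4% (30.1 to 41.1). Shifted pairs gave 37.4% (32.3 to 42.8) for overlapping and 35.4% (34.1 to 36.8) for near-only pairs. Of all peaks, 38.5% (H2O2) and 43.1% (H2O2 + BHBNa) lay in or near such a gene. The gene table gives gene spans without exons, so introns and UTRs were not told apart. The 113 genes with a pair had a median length of 262 kb, against 24.5 kb for the 19126 protein-coding genes on these chromosomes. A gene had to hold both summits to be counted. The reference was all genes, not those with a peak of each list, so the part of gene length was not tested.

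No member touched a promoter window. RefSeq promoter windows, from 250 bases before to 50 after a gene's start on GRCh38, met 0 of 335 H2O2 members and 0 of 344 H2O2 + BHBNa members. Counts of 0 allow shares of up to 0.896% and 0.872%. Over all peaks 11 of 5879 (0.187%) and 37 of 10760 (0.344%) met one. The limits that counts of 0 allow are above those shares, so a difference was not detectable at this number of members.

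Control background tended to be high in both treatments or in neither at overlapping pairs, with exceptions. It was over 3 times the lowest of the list in both treatments at 18 of 69 overlapping pairs, 26.1% (17.2 to 37.5), and at 17 of 288 near-only pairs, 5.9% (3.72 to 9.25). Shifted near-only pairs gave 3.5% (range 1.44 to 6.52), and no shifted share is given here for overlapping pairs. The background was over that level in the H2O2 list alone at 2 overlapping and 23 near-only pairs. In the H2O2 + BHBNa list alone it was so at 8 overlapping and 19 near-only pairs. Of all peaks, 17.4% (H2O2) and 10.1% (H2O2 + BHBNa) were over that level. At 5 overlapping pairs the background was over 10 times the lowest in both lists.

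Across overlapping pairs the background of the H2O2 list followed that of the H2O2 + BHBNa list, with Spearman's rho of 0.76 over 69 pairs and 0.70 over the 64 without those 5. Over the 288 near-only pairs rho was 0.40, and over shifted near-only pairs it averaged 0.24 (range 0.12 to 0.34). The background comes from separate control libraries of the same cell line. With peaks limited to at most 3 times the lowest background, 41 overlapping pairs were left, where shifts gave 12.9, a ratio of 3.18. Under this limit overlaps still outnumbered shifted positions, at a lower ratio than the 4.23 without it. The part of control background in the overlaps was not tested.

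**Figure D5:**
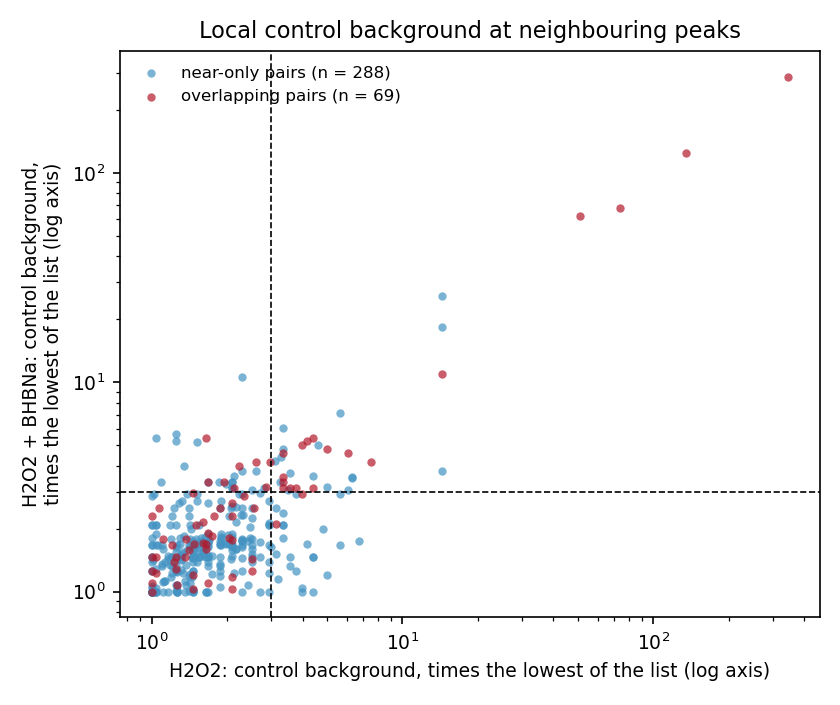
Local control background at the H2O2 peak (horizontal) and the H2O2 + BHBNa peak (vertical) of each pair, as multiples of the lowest background of the list on log axes, for 69 overlapping (red) and 288 near-only (blue) pairs; dashed lines mark 3 times. The 5 overlapping pairs over 10 times in both lists follow a diagonal, and most pairs of both kinds lie under 3 times in both.

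Pairs were found on every chromosome from 1 to 21, and chromosome 22 held 0. Chromosome 18 held 22 pairs at 21 loci, where shifts gave a mean of 10.2 (range 5 to 14), and 19 of the 22 were near only. Its near-only pairs included those in the laminin genes LAMA1 and LAMA3, named after their values were seen, with folds of 3.14 and 2.72 (LAMA1) and 3.48 and 2.57 (LAMA3). Chromosome 20 held 20 pairs, where shifts gave 5.45 (2 to 11), but 11 without the 9-pair locus. Chromosome 13 held 5, where shifts gave 12.3 (7 to 17). Overlapping pairs were more than the shifted mean on 18 chromosomes and more than in any of the 20 shifts on 10.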

How the data were processed

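H3K4bhb peaks of HK-2 cells were analysed from 2 lists, each called from 1 IP library against 1 control library, per the peak names. Per the submitters' processing notes, the tools were MACS2 2.2.7.1, Bowtie2 2.4.2, fastp 0.20.1, DiffBind, HOMER and ChIPseeker, on GRCh38, and their settings are not given in the sources used here. Each deposited peak carries a score (10 times the −log10 p), a ratio (fold enrichment over control), the −log10 of p and of q, and a summit. The lowest −log10 p was 3.00. The second file of each treatment held the same peaks with starts 1 bp lower.

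IP fragments and control background at each summit were solved from the fold and p under a Poisson model, and 100% of peaks gave a whole number within 0.001 on the −log10 scale. Pairing, shifts and Wilson intervals were computed in Python 3.11.15 with pandas 2.3.3 and scipy 1.17.1, and tested on simulated data. Shifts moved H2O2 peaks by fixed amounts.

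Gene spans were those of RefSeq on GRCh38.p14. Named pairs were the 10 overlapping and 10 near-only pairs with the highest lower −log10 q, the 5 least gaps, genic pairs that reached a q of 0.05 in both treatments, pairs in the 10 gene lists, genes with 2 or more pairs, and the pairs nearest the 5 kb limit. The members and lists were chosen with earlier results of these data known. Alternatives covered summit distance, q, fragments, control background, chromosome X, overlap and shift size. No sequence of the peaks was used here.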

Additional observations from a re-analysis of the deposited data

Results flagged for a closer look

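Signal also appeared outside chromosomes 1 to 22. On unplaced contigs and patches, 18 H2O2 and 45 H2O2 + BHBNa peaks formed 15 pairs within 5 kb, 12 of them overlapping, and no control peak list was analysed here to set beside them. On chromosome X, 353 and 704 peaks formed 26 pairs, 5 of them overlapping. Shifts there gave a mean of 17.6 pairs (range 10 to 24) and 1.05 overlapping pairs, with at most 3. These pairs were counted for their place outside the main comparison, and they enter none of the counts above except where chromosome X is named.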

How the results depend on the processing

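The ratio of overlapping pairs to shifted positions stayed above 1 in all 9 alternatives run for pairs, as did that of near-only pairs, and 31 of 50 recomputed values stayed near the main one. Values below that moved are counts of H2O2 members, H2O2 + BHBNa members and near-only pairs unless named. With summits within 10 kb they were 585, 603 and 570, and within 2 kb 176, 182 and 116. Limited to peaks with a q of 0.05 or less they were 20, 25 and 12, with 15 overlapping pairs, and the ratios were 75 for overlapping and 4.53 for near-only pairs, on shifted means of 0.2 and 2.65 pairs. With at least 3 IP fragments in both lists they were 195, 201 and 150, and the overlapping ratio was 6.51. With control background at most 3 times the lowest, overlapping pairs were 41 and their ratio 3.18. At 50% overlap of both peaks, overlapping pairs were 39. The smaller and larger counts follow from stricter or wider limits. Leaving out loci of 3 or more pairs was chosen after seeing the data. It left ratios of 3.93 and 1.11, but cut the near-only excess over the shifted mean from 40.6 to 26.8 pairs, and 1 of 20 shifts then reached the count. No paired analysis was possible because either treatment has a single IP library, so none could be left out. Peaks of 2 to 4 fragments limit what overlap can show, since a missed peak and an absent one look alike at this depth.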
